A study of Mus musculus with 8 samples.

Results

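The 34 genes described here encode nucleolar and ribosome assembly factors. They were taken as a given list, which was chosen with earlier results of these data known. All 34 were found among the 23091 genes in the tables, Utp4 under its older symbol Cirh1a, and each had counts in every library. The cells came from wild-type C57BL/6N mice, from extraembryonic yolk sac taken at embryonic day 9.5, and were measured singly. Libraries labelled A1 and A2 cells (4, called A1/A2), the early myeloid progenitors of the yolk sac, were set beside 4 libraries labelled EMP cells (erythromyeloid progenitors, from which A1 cells arise). Per the labels' protocols, all cells were sorted as CD45-positive, and the EMP libraries were run beside the others but were left out of the published work. No treatment was given to either group, and all 8 libraries carry the same batch label. No label says that libraries came from separate litters, so p-values measure only the spread between libraries, which may be technical. The titles give each A1/A2 library the same P number as an EMP library, without saying what P stands for, and the main tests do not pair them.

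Making a ribosome starts in the nucleolus. RNA polymerase I transcribes the precursor of ribosomal RNA there, and small nucleolar ribonucleoproteins (snoRNPs) guide its chemical marks. The box C/D kind methylates ribose and the box H/ACA kind turns uridine into pseudouridine. A large early complex, the small subunit processome, folds and cuts the part of the precursor that becomes the small subunit. Another set of factors shapes the large subunit before it leaves the nucleus. Growing and dividing cells make many ribosomes, and the transcription factors Myc and Mycn are known activators of these genes. They bind the sequence CACGTG, called an E-box.

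RefSeq start sites (assembly GRCm38.p6) were at hand for 29 of the 34 genes, with 32 promoter windows from 250 bases before the start site to 50 bases after it. CACGTG, which reads the same on both strands, was present in 6 of the 32 windows (18.75%), against 7.15% of all 32851 windows of the same length. The 6 genes were Nop2, Pes1, Tsr1, Utp20, Utp4 and Wdr43. GGGCGG, a GC box, was searched on both strands and was in 20 of 32 windows (62.5%), against 35.66% of all. These are matches of letters and not measured binding sites. The windows below show 3 E-box genes and Dkc1, the gene with the largest difference in high Apoa1 wells, whose window has no CACGTG. Capitals mark CACGTG, which begins 60 bases before the start site in Nop2, 3 bases after it in Pes1 and 38 bases after it in Utp20. The windows lie at chr6:125131633-125131932 (plus strand) for Nop2, chr11:3963725-3964024 (plus strand) for Pes1, chr10:88826765-88827064 (minus strand) for Utp20 and chrX:75095604-75095903 (plus strand) for Dkc1.
Nop2: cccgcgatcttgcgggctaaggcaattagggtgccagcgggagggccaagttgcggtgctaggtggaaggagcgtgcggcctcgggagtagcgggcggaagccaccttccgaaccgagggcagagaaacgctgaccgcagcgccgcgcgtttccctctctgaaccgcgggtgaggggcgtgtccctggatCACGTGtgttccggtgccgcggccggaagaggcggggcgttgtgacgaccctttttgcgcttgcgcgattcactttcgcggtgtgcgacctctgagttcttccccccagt
Pes1: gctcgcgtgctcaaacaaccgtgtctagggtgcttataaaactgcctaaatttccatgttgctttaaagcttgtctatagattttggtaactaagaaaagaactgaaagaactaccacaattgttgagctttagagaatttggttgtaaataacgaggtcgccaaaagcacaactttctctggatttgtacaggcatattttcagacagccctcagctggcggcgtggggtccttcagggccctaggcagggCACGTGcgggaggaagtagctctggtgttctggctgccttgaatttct
Utp20: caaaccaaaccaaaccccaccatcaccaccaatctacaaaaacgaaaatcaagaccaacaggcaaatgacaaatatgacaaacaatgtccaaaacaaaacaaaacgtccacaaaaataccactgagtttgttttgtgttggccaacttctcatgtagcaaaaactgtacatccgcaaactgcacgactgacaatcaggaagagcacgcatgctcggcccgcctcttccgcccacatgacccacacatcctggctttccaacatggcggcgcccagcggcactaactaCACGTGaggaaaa
Dkc1: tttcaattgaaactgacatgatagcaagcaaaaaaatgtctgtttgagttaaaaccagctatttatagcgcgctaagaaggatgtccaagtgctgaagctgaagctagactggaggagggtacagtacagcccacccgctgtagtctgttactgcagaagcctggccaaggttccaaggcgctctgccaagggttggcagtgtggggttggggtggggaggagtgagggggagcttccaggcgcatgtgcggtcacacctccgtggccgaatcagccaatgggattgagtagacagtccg

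Wells with at least 5000 transcripts were kept, 811 of 1536. The A1/A2 libraries gave 306 wells (70 to 84 each) and the EMP libraries 505 (109 to 143 each). Summed counts per library ranged over 2440397 to 3415772 in A1/A2 and 3798203 to 5326589 in EMP. Every table numbers its wells by the same well barcodes, so a shared number names no shared cell. The labelled cell types did not account for all wells. Apoa1, an apolipoprotein gene of yolk sac endoderm, made up at least 20 per 10000 counts in 100 of 306 A1/A2 wells and 241 of 505 EMP wells. Summed over 8 endoderm markers, such wells had 174.9 to 215.7 per 10000 in A1/A2 and 181.2 to 238.1 in EMP libraries. Other wells had 24.4 to 47.5 in A1/A2 and 37.0 to 50.1 in EMP libraries. If Apoa1 is among the 8 markers, part of this gap follows from the threshold itself. At 20, macrophage markers summed to 2.67 to 5.52 per 10000 in high Apoa1 wells of A1/A2 libraries and 12.14 to 14.06 in other wells. In EMP libraries they summed to 0.35 to 0.46 and 0.74 to 1.44. The high Apoa1 wells are thus not shown to hold a single cell type. The threshold set for this report, 50 per 10000, was reached by only 17 A1/A2 and 34 EMP wells and left the markers of the other wells at 65.9 to 102.6 per 10000 in A1/A2 and 115.1 to 179.0 in EMP libraries. Results are therefore given at both thresholds. The threshold of 20 was listed as an alternative.

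The 34 genes together made up 112.4, 100.7, 92.7 and 104.3 per 10000 counts in A1/A2 libraries 1 to 4. In EMP libraries 1 to 4 they made up 80.6, 77.1, 85.0 and 88.3 per 10000. The lowest A1/A2 library was above the highest EMP library. A tag at the 3′ end gives a count per transcript, so no value here is divided by gene length. Npm1 held 33.46% of the summed count on average and Ncl 18.15%, between 49.7% and 54.6% together in each library. Heatr1 and Rrp12 held the least, 0.31% each. Without Npm1 and Ncl the sum was 45.6 to 56.1 per 10000 in A1/A2 and 36.6 to 41.5 in EMP libraries. Ribosomal protein genes held 6.9% to 8.2% of counts in A1/A2 and 5.3% to 6.1% in EMP libraries. Mitochondrial genes held 18.2% to 21.6% of counts in A1/A2 and 23.9% to 26.5% in EMP libraries. Their part in the difference was not tested. When every well was thinned to 5000 counts, so that shallow wells weighed as much as deep ones, the sum was 88.4 ± 13.3 per 10000 in A1/A2 and 84.4 ± 6.31 in EMP libraries (SD, n = 4 each), and the ranges of 68.9 to 97.2 and 76.2 to 91.1 overlapped. The median level of single wells differed between depths, with no steady rise. In A1/A2 wells it was 50.3 per 10000 at 5000 to 10000 counts, 44.4 at 10000 to 20000, 116.7 at 20000 to 40000, 128.7 at 40000 to 80000 and 92.4 at 80000 and over. In EMP wells of these depths it was 59.2, 71.5, 89.2, 67.9 and 68.4 per 10000.

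In the sums of all wells, 21 of 34 genes were higher in A1/A2 than in EMP libraries and 0 were lower (edgeR's quasi-likelihood test, Benjamini-Hochberg adjusted p under 0.05). Of all 11087 genes tested, 17.3% were called higher. Without overlap between the groups, 18.1% of all genes were higher and 13.2% lower. The median log2 fold change of the 34 genes was 0.32, against −0.02 over all genes. In such sums, more cells of a type cannot be told apart from more RNA per cell. Without the wells of 20 or more Apoa1 per 10000, an alternative added after the values were seen, 13 genes were higher and 0 lower, beside 16.3% of all genes called higher, and the median was 0.25. With all wells thinned to 5000 counts 4 were higher (Dkc1, Nop58, Ppan and Wdr12), beside 8.21% of all genes, and 3 with both changes (Nop58, Ppan and Wdr12), beside 8.65%. The 13 large subunit factors had a median of 0.44 with 10 called, and 0.45 with 7 called without the Apoa1 wells.

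Of the nucleolar proteins Ncl and Npm1, Ncl was higher and Npm1 was not called. Ncl, nucleolin, which binds precursor ribosomal RNA, had 2127.5, 1884.5, 1628.8 and 1906.1 CPM (counts scaled to a total of 1000000) in A1/A2 libraries, against 1404.7, 1310.5, 1596.2 and 1636.5 CPM in EMP libraries. Its groups overlapped through A1/A2 library 3 and EMP library 4, and the log2 fold change of 0.31 ± 0.10 (SE) passed the test (adjusted p 0.0267). Npm1, nucleophosmin, a nucleolar chaperone, had 3496.4, 3122.5, 3083.9 and 3326.2 CPM in A1/A2 and 2774.4, 2746.1, 3047.9 and 3046.4 CPM in EMP libraries. These groups did not overlap, yet the difference of 0.14 ± 0.08 missed the threshold (adjusted p 0.201), and without the Apoa1 wells it was −0.08 ± 0.08. Reads of Npm1 may be shared with its processed copies, and the counting rule for such reads is not given in the sources used here.

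Neither subunit of RNA polymerase I was called. Polr1a, the largest subunit, had 54.1, 55.3, 38.8 and 46.4 CPM in A1/A2 libraries, against 38.9, 44.1, 42.0 and 40.0 CPM in EMP libraries, with overlap. Polr1b, the second subunit, had 52.5, 44.5, 44.2 and 47.0 CPM in A1/A2 and 40.8, 29.3, 36.8 and 39.0 CPM in EMP libraries, without overlap. Its log2 fold change of 0.34 ± 0.12 had an adjusted p of 0.0502.

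Among the box C/D proteins, the scaffold pair was higher and the methyltransferase was not called. Nop58 had 408.2, 361.0, 289.8 and 360.4 CPM in A1/A2 libraries, against 238.6, 206.9, 231.3 and 266.7 CPM in EMP libraries (log2 fold change 0.56 ± 0.11, adjusted p 0.00241). Nop56 had 683.6, 513.6, 469.9 and 574.8 CPM in A1/A2 and 410.6, 337.4, 422.7 and 457.9 CPM in EMP libraries (0.43 ± 0.12, adjusted p 0.0164). Neither gene's groups overlapped. Fbl, fibrillarin, the methyltransferase of the particle, had 291.8, 258.8, 232.3 and 259.9 CPM in A1/A2 and 227.4, 189.3, 200.7 and 252.5 CPM in EMP libraries (0.23 ± 0.10, adjusted p 0.09). Its groups overlapped.

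Dkc1, dyskerin, the pseudouridine synthase of H/ACA particles, had the largest difference of the list. It had 266.8, 204.1, 222.8 and 279.1 CPM in A1/A2 libraries, against 147.5, 83.0, 149.7 and 155.9 CPM in EMP libraries. EMP library 2, which also had the most high Apoa1 wells, stood below the others. The log2 fold change was 0.83 ± 0.18 (adjusted p 0.00556) and 0.50 ± 0.10 without the Apoa1 wells (adjusted p 0.000957). Gar1, a partner of Dkc1 in the same particle, was not called at 0.23 ± 0.11, and had −0.09 ± 0.13 without those wells.

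Among large subunit factors, 10 of 13 were higher. Mrto4, an assembly factor related to the ribosomal stalk protein, had 105.3, 94.6, 90.6 and 100.2 CPM in A1/A2 libraries, against 58.1, 47.1, 56.2 and 61.6 CPM in EMP libraries (log2 fold change 0.78 ± 0.10, adjusted p 0.000195). Rrp1b had 111.5, 118.6, 74.6 and 97.5 CPM in A1/A2 and 53.3, 52.8, 61.9 and 60.6 CPM in EMP libraries (0.78 ± 0.13, adjusted p 0.00105). Wdr12, which forms a complex with Pes1 and Bop1, had 155.3, 130.0, 142.0 and 161.2 CPM in A1/A2 and 85.3, 67.8, 101.2 and 98.5 CPM in EMP libraries (0.71 ± 0.12, adjusted p 0.00148). Every A1/A2 library was above every EMP library for these 3 genes, as for 18.1% of all genes. Ppan had 68.0, 48.0, 67.4 and 62.2 CPM in A1/A2 and 39.7, 30.8, 35.7 and 39.2 CPM in EMP libraries, also without overlap (0.72 ± 0.13, adjusted p 0.00225). Gnl3, nucleostemin, a GTP-binding protein of the nucleolus, had 261.5, 249.2, 229.6 and 259.3 CPM in A1/A2 and 233.2, 230.4, 240.2 and 249.6 CPM in EMP libraries, a log2 fold change of 0.04 ± 0.08 with overlap (adjusted p 0.734).

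**Figure D1:**
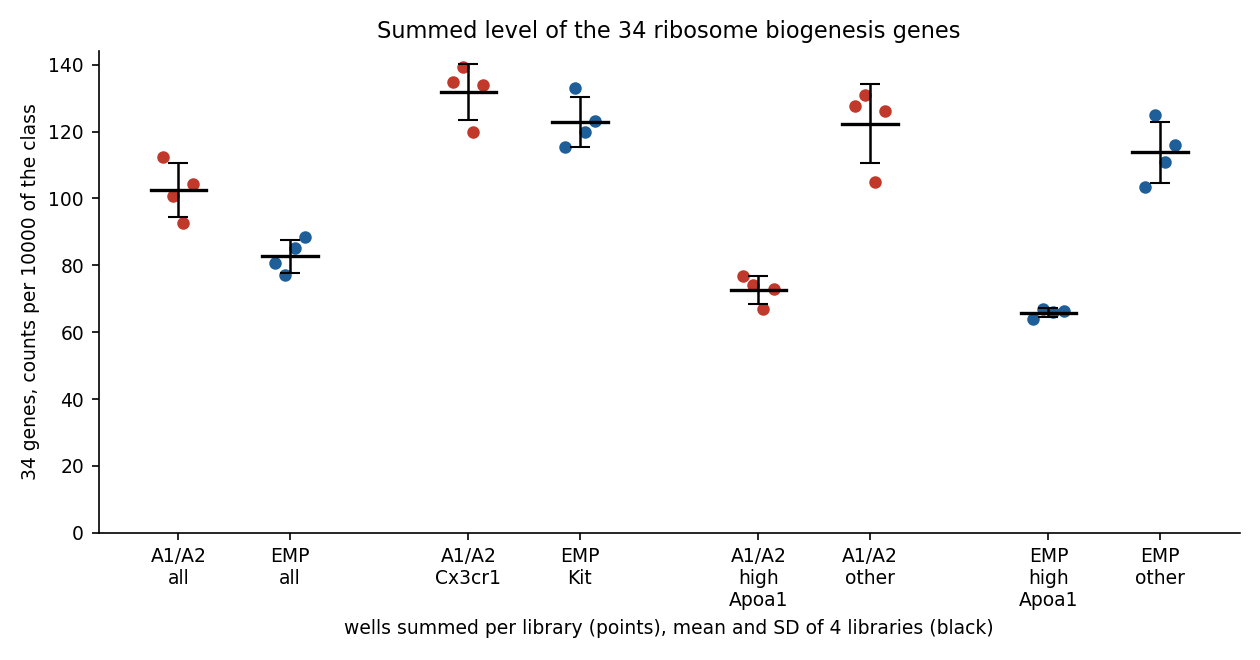
Counts of the 34 genes per 10000 counts (y axis, linear from 0) in sums of wells per library, with 20 per 10000 as the threshold for high Apoa1. Points are libraries (red A1/A2, blue EMP) and black bars the mean and SD of 4 libraries. High Apoa1 wells lie between 64.0 and 76.7, and other wells between 103.3 and 130.8.

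To set the labelled cell types beside each other, wells of the A1/A2 libraries with at least 1 Cx3cr1 transcript (the chemokine receptor that marks A2 cells) were compared with EMP wells with at least 1 Kit transcript (the receptor that marks progenitors), without high Apoa1 wells. These wells come from the same libraries as the comparison above. At the threshold of 50, 26 of 34 genes were higher in the Cx3cr1 wells and 0 were lower, beside 18.8% of all genes called higher, with a median log2 fold change of 0.35. At the threshold of 20, 14 were higher and 0 lower, beside 17.0% of all genes, and the median was 0.24. The summed level at 20 was 134.8, 139.3, 119.8 and 133.9 per 10000 in Cx3cr1 wells, against 115.3, 132.9, 119.7 and 123.2 in Kit wells, and the groups overlapped. At this threshold the macrophage markers summed to 13.5 to 17.0 per 10000 in Cx3cr1 wells and 0.6 to 1.0 in Kit wells, while the progenitor markers summed to 1.6 to 2.7 and 7.2 to 9.1. All 6 progenitor markers had counts in EMP Kit wells, and 5 in EMP wells without Kit. All 10 macrophage markers had counts in Cx3cr1 wells, and 7 to 9 in A1/A2 wells without Cx3cr1. Kit and Cx3cr1 themselves may thus be in these sums, and part of the gaps may follow from how wells were chosen. Endothelial markers, which were 0.8 to 1.0 per 10000 in the Cx3cr1 wells, were 4.9 to 6.8 in the EMP Kit wells. The median total of a well at 20 was 34066 to 52606 counts in Cx3cr1 wells and 17671 to 34414 in Kit wells. Mitochondrial genes held 15.0% to 18.4% of counts in Cx3cr1 wells and 18.8% to 22.2% in Kit wells. The part of these in the result was not tested.

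Of the 14 genes higher at both thresholds, 7 were large subunit factors: Rrp1b, Mrto4, Wdr12, Ppan, Nop16, Nip7 and Nop2. The others were Nop58, the H/ACA protein genes Dkc1 and Nhp2, the snoRNP chaperone gene Nolc1, and the small subunit genes Heatr1, Nop14 and Tsr1. Rrp1b had 148.3, 161.8, 110.8 and 136.0 CPM in Cx3cr1 wells, against 78.0, 76.8, 94.2 and 85.9 CPM in Kit wells at the threshold of 20. The log2 fold change was 0.75 ± 0.12 (adjusted p 2.84e-05), and 0.83 ± 0.11 at the threshold of 50. Mrto4 had 127.7, 121.1, 106.3 and 132.3 CPM in Cx3cr1 wells and 80.5, 69.0, 74.9 and 72.1 CPM in Kit wells (0.74 ± 0.11, adjusted p 1.98e-05). Both genes were higher in every Cx3cr1 sum than in any Kit sum. At the threshold of 20, so were 14.8% of all genes, while 16.5% were lower without overlap.

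Nop58 had 475.6, 490.2, 363.2 and 473.4 CPM in Cx3cr1 wells, against 305.8, 344.8, 301.2 and 337.3 CPM in Kit wells (log2 fold change 0.51 ± 0.10, adjusted p 0.000227). Wdr12 had 196.2, 184.5, 187.2 and 177.4 CPM in Cx3cr1 wells and 109.8, 106.7, 152.5 and 132.6 CPM in Kit wells (0.59 ± 0.11, adjusted p 0.000201). Heatr1, a small subunit processome protein, had the largest fold change, 0.81 ± 0.21, on sums of only 273 counts in Cx3cr1 wells and 161 in Kit wells. Its 4 Cx3cr1 values of 36.6, 35.0, 66.6 and 53.1 CPM were above the Kit values of 32.5, 18.2, 28.4 and 28.8 CPM.

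Npm1 and Ncl, the most abundant of the 34, were not called at the threshold of 20. Npm1 had 4283.3, 4523.2, 4099.8 and 4344.6 CPM in Cx3cr1 wells, against 4206.4, 5264.0, 4562.3 and 4533.4 CPM in Kit wells, a log2 fold change of −0.08 ± 0.08 (adjusted p 0.479). Ncl had 0.17 ± 0.08, Fbl 0.07 ± 0.10, Gar1 −0.09 ± 0.12, Gnl3 −0.04 ± 0.09 and Utp4 0.05 ± 0.12, none past the threshold. Utp4 takes part in an early subcomplex of the processome. With wells thinned to 5000 counts before the classes were set, 26 of the 34 genes could be tested at the threshold of 20 and only Nop58 was called (0.50), beside 9.56% of all genes, with a median of 0.13 over the 26. The summed level at 20 and thinned was 129.2 ± 17.0 per 10000 in Cx3cr1 wells and 123.9 ± 9.66 in Kit wells (SD, n = 4 each). At 50 and thinned, Nop2 alone of 27 was called (0.73), beside 8.81%, and the level was 124.6 ± 16.8 per 10000 in Cx3cr1 wells and 118.4 ± 7.74 in Kit wells (SD, n = 4 each). Mycn was lower, at 5.16 ± 4.04 CPM in Cx3cr1 wells and 161 ± 22.0 CPM in Kit wells (SD, n = 4 each; log2 fold change −4.89 ± 0.29). Myc had 114.4, 112.2, 106.3 and 136.0 CPM in Cx3cr1 wells against 137.9, 69.0, 128.4 and 99.6 CPM in Kit wells (log2 fold change 0.10 ± 0.17).

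**Figure D2:**
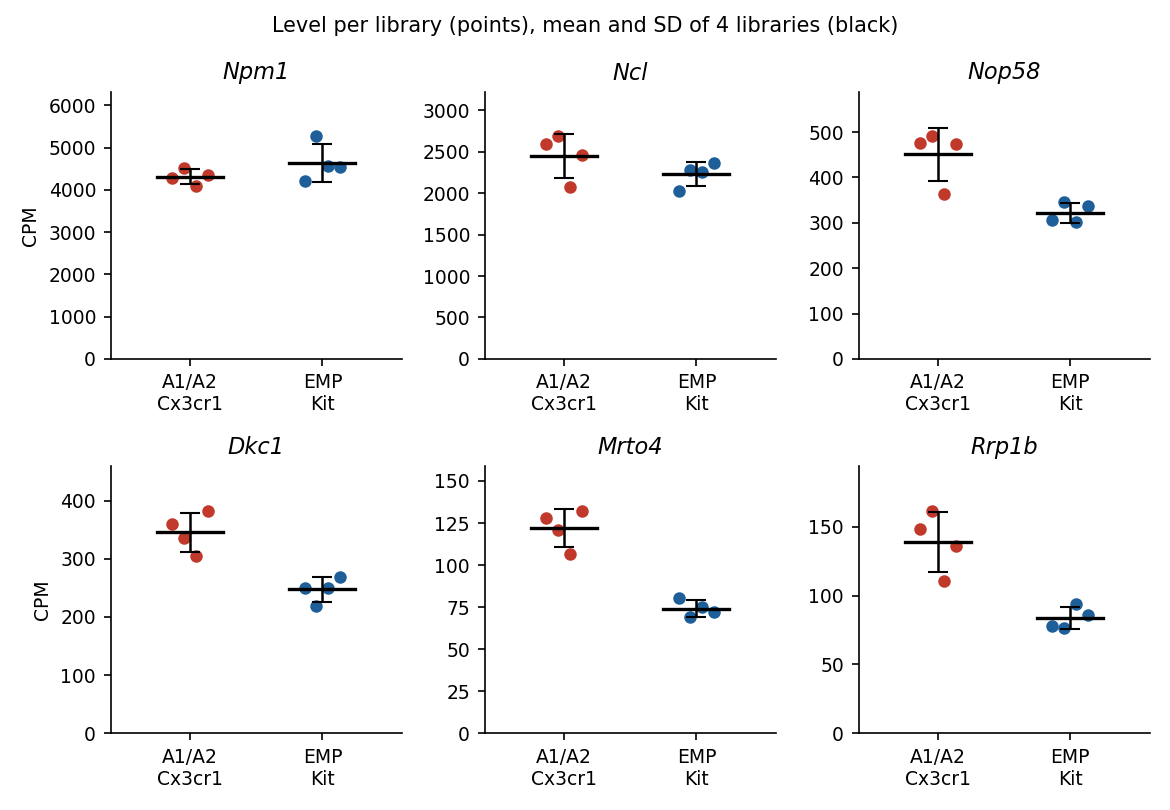
CPM per library (y axis, linear from 0, a scale for each gene) of 6 genes in A1/A2 wells with Cx3cr1 (red, left) and EMP wells with Kit (blue, right), with 20 per 10000 as the threshold for high Apoa1. Points are libraries and black bars the mean and SD of 4 libraries, and Npm1 and Ncl overlap while the other 4 genes do not.

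**Figure D3:**
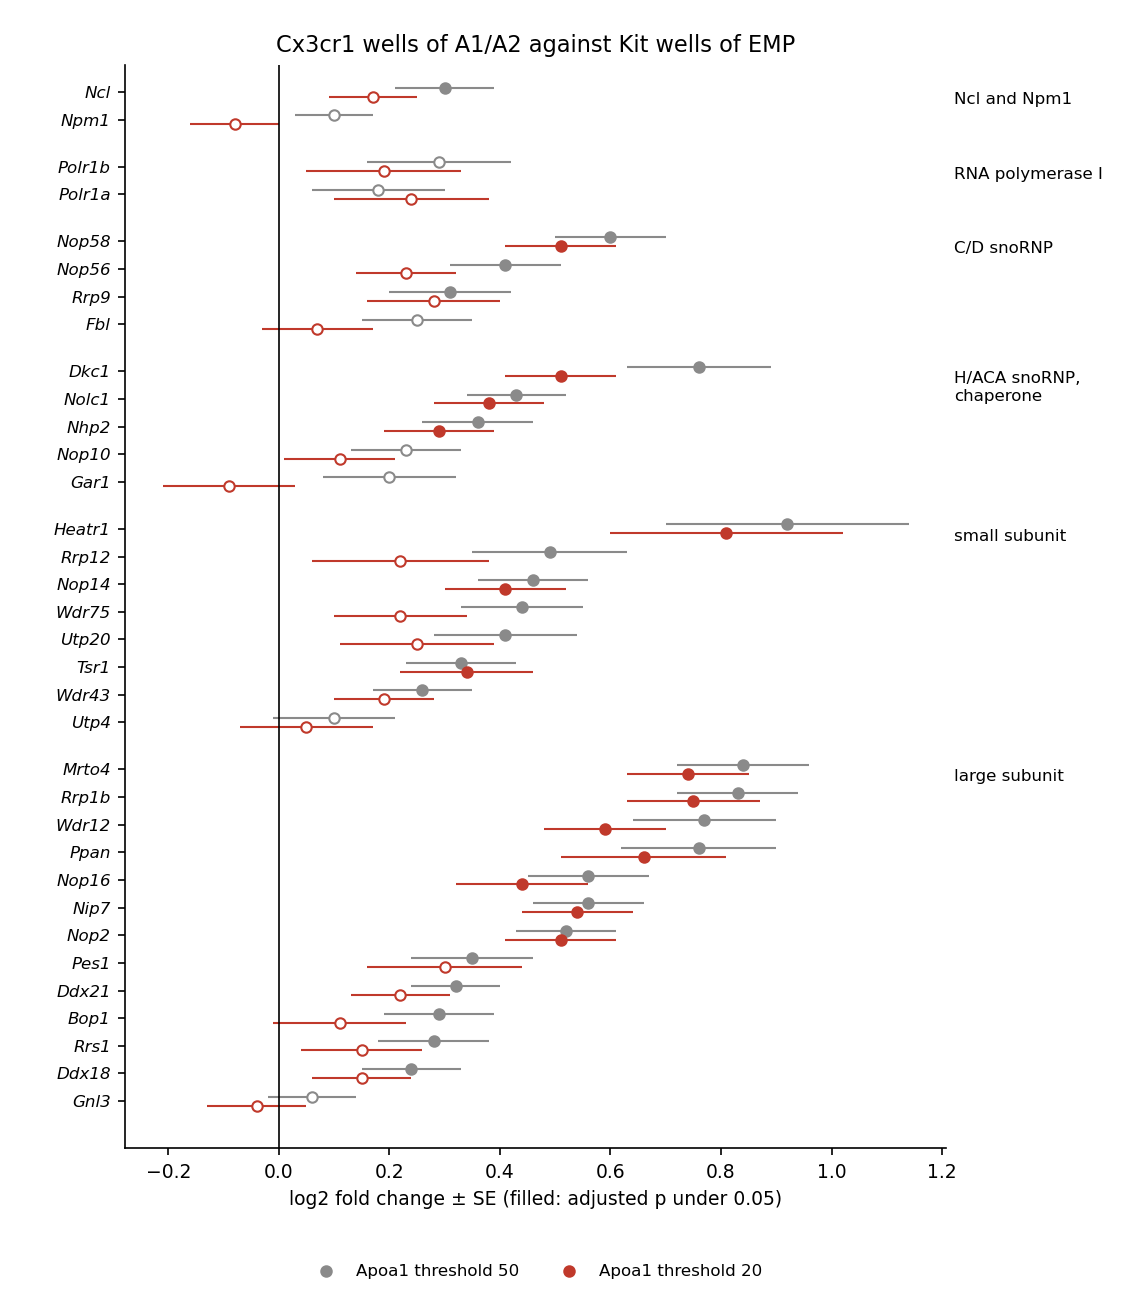
Log2 fold change with SE of the 34 genes, Cx3cr1 wells of A1/A2 over Kit wells of EMP, by role, at both thresholds for high Apoa1 (grey 50, red 20). Filled points have an adjusted p under 0.05, 26 at the threshold of 50 and 14 at 20.

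Genes of the same pathway outside the list, on lists written for this report with earlier results known, were also counted in Cx3cr1 over Kit wells. At the threshold of 50, 23 of 52 other large subunit factors, 24 of 47 other small subunit factors, 7 of 16 RNA polymerase I factors and 7 of 16 exosome factors were higher, and 0 were lower in each list, beside the 18.8% of all genes called higher. Their median log2 fold changes were 0.33, 0.34, 0.28 and 0.32. At 20 the counts were 18 of 52, 18 of 47, 6 of 16 and 5 of 16, with 0, 0, 0 and 1 lower, beside 17.0% of all genes called higher. Thinned to 5000 counts, at 50, 1 of 23, 0 of 17, 0 of 6 and 0 of 7 were higher, beside 8.81%, and the medians were −0.07, 0.11, 0.01 and 0.28. By smallest p, Ftsj3 (0.83 ± 0.11), Rrp15 and Ddx56 led the large subunit list, and Tbl3 (1.06 ± 0.14), Pwp2 and Wdr46 the small subunit list. Cd3eap, Taf1b and Polr2l led the polymerase list, and Exosc5, Exosc2 and Exosc3 the exosome list. Of 31 Myc targets outside the nucleolus, 17 were higher and 1 lower at 50 and 13 and 3 at 20. Mthfd2, a mitochondrial folate enzyme, had the smallest p (1.49 ± 0.11), followed by Gart and Pa2g4, and Cdk4 was lower (−0.33 ± 0.08). Of 10 p53 targets, 1 was higher (Bax, 0.54 ± 0.14) and 0 were lower at 50, and 1 was higher and 2 were lower of 9 at 20. Of all genes, 17.6% were called lower at 50 and 16.6% at 20. The same leading genes were named by smallest p in the comparison of whole libraries, except Noc2l (1.03 ± 0.19) in place of Ddx56 and Exosc4 in place of Exosc3.

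Wells with high Apoa1 held fewer counts of the 34 genes than other wells of the same library. At the threshold of 20, with all 8 libraries, the sum was 76.7, 74.1, 67.0 and 72.8 per 10000 in high Apoa1 wells of A1/A2 libraries, against 127.5, 130.8, 105.0 and 126.2 in their other wells. In EMP libraries it was 64.0, 66.9, 66.0 and 66.5 in high Apoa1 wells, against 103.3, 125.1, 110.8 and 116.0 in other wells. No high Apoa1 sum reached any other sum. Of the 34 genes, 0 were higher and 31 were lower (library as a block), beside 33.8% of all genes called lower, and the median log2 fold change was −0.53, against −0.06 over all genes. At the threshold of 50, 4 libraries (A1/A2 library 2 and EMP libraries 1, 2 and 4) had the 5 wells needed for a sum. There, 0 were higher and 10 lower, beside 11.5% of all genes called lower, with a median of −0.31. Without A1/A2 library 2, the only A1/A2 library in that fit, 5 were lower, and without EMP library 4, 6. Thinned to 5000 counts, 24 of 34 were lower at the threshold of 20, beside 27.1% of all genes, and 11 of 31 at 50, beside 11.8%.

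Dkc1 had the largest fall. It had 115.5, 118.5, 139.8 and 152.2 CPM in high Apoa1 wells of A1/A2 libraries, against 331.1, 301.1, 262.1 and 366.8 CPM in other wells, and 90.6, 58.1, 93.1 and 81.9 CPM in high Apoa1 wells of EMP libraries, against 225.8, 199.1, 226.2 and 249.8 CPM in other wells. The groups did not overlap, and the log2 fold change was −1.28 ± 0.07 (adjusted p 2.58e-11). It was −1.02 ± 0.16 at the threshold of 50, where the groups overlapped. Without overlap at 20, 10.9% of all genes were lower and 13.5% higher. Its partners had −0.82 ± 0.08 (Gar1), −0.35 ± 0.06 (Nop10) and −0.09 ± 0.06 (Nhp2, adjusted p 0.185), and the differences among these genes were not tested. Nhp2, Tsr1 (−0.08 ± 0.09) and Polr1a (−0.17 ± 0.10) were the 3 genes not called.

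Npm1 had 2127.0 to 2264.4 CPM in high Apoa1 wells of A1/A2 libraries, against 3543.4 to 4219.7 CPM in other wells, and 2073.6 to 2281.9 CPM in those of EMP libraries, against 3737.7 to 4914.7 CPM. The log2 fold change was −0.82 ± 0.03 (adjusted p 1.21e-12), and −0.64 ± 0.11 at the threshold of 50. Ncl had 1113.5 to 1334.9 CPM over the 8 high Apoa1 sums, against 1805.1 to 2522.5 CPM in the others (−0.74 ± 0.04, adjusted p 5.34e-11). Bop1, of the complex with Pes1 and Wdr12, had 59.9 to 115.5 CPM in high Apoa1 wells, against 138.4 to 219.4 CPM in other wells (−0.88 ± 0.09, adjusted p 8.17e-08). Pes1 itself was lower by a smaller amount (−0.31 ± 0.11). Myc was lower in these wells too, at 21.2 to 44.6 CPM against 67.1 to 120.9 CPM (−1.40 ± 0.08, adjusted p 6.43e-11).

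All 4 box C/D genes were lower at both thresholds, with Nop56 at −0.89 ± 0.06 and Rrp9, of the U3 particle, at −0.81 ± 0.11 at the threshold of 20. All 13 large subunit and 7 of 8 small subunit genes were lower at 20, but only 2 of 13 and 0 of 8 at 50. In the other pathway lists at 20, with 33.8% of all genes called lower, there were 34 of 52 large subunit, 35 of 47 small subunit, 12 of 17 polymerase and 14 of 16 exosome factors lower, and 1, 0, 0 and 0 higher. Of 12 p53 targets, 5 were higher and 2 lower, beside 30.6% of all genes called higher and 33.8% called lower. Mitochondrial genes held 20.2% to 23.0% of counts in high Apoa1 wells and 16.8% to 21.0% in other wells of A1/A2 libraries, and 23.5% to 28.1% and 20.9% to 26.6% in EMP libraries. Their part in the result was not tested.

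**Figure D4:**
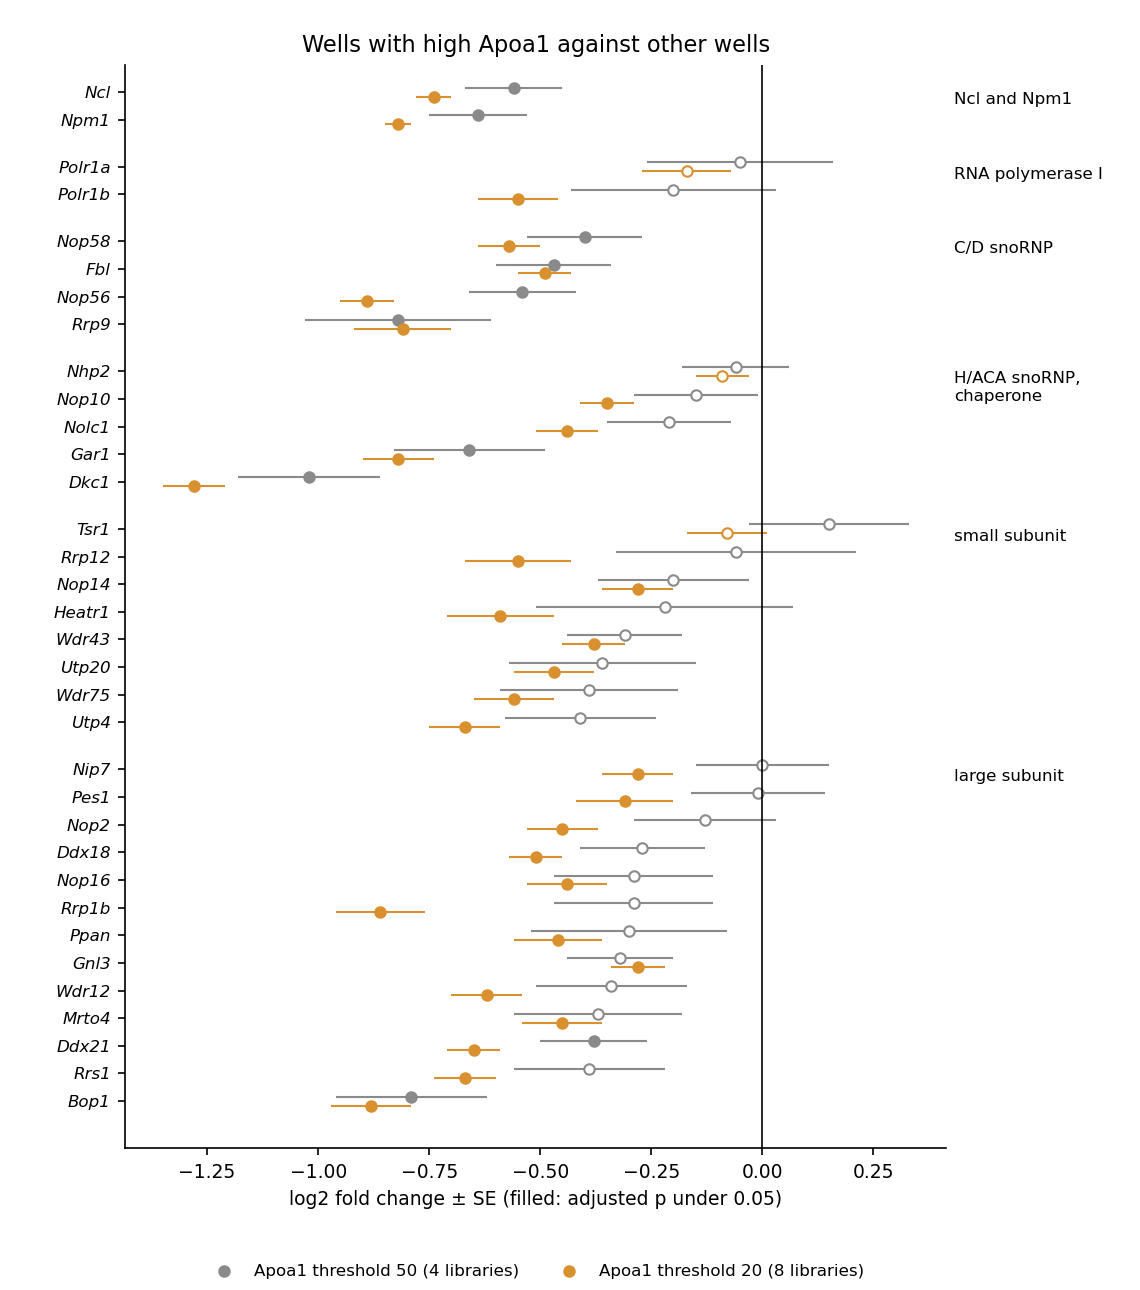
Log2 fold change with SE of the 34 genes, high Apoa1 wells over other wells with library as a block, by role, at both thresholds (grey 50 in 4 libraries, orange 20 in 8 libraries). Filled points have an adjusted p under 0.05, 10 at the threshold of 50 and 31 at 20.

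The fall was tested for a difference between A1/A2 and EMP libraries by an interaction at the threshold of 20. Of the 34 genes, only Nolc1 passed (3.94% of all genes did), with an A1/A2 effect lower than the EMP effect by −0.38 ± 0.10 (adjusted p 0.0357). Nolc1 had 237.8, 260.7, 216.1 and 206.7 CPM in high Apoa1 wells of A1/A2 libraries, against 369.7, 423.5, 281.8 and 371.0 CPM in other wells. In EMP libraries it had 218.1, 235.5, 196.8 and 209.5 CPM in high Apoa1 wells, against 268.4, 341.8, 265.1 and 283.3 CPM in other wells. It was lower in the high Apoa1 wells of all 8 libraries.

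**Figure D5:**
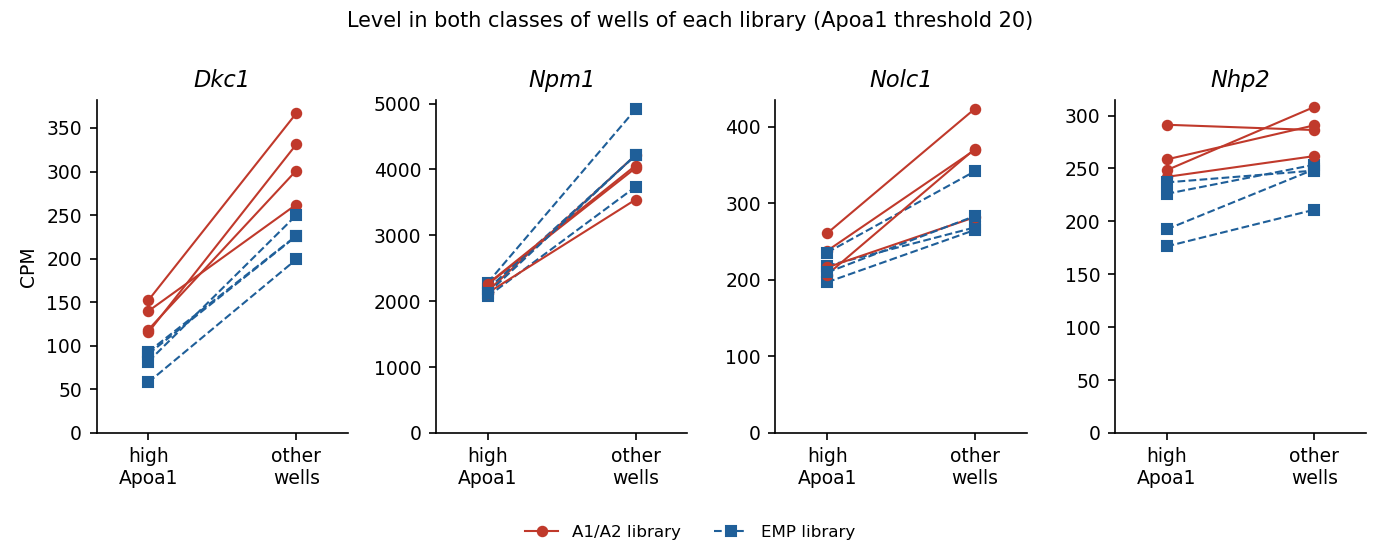
CPM (y axis, linear from 0, a scale for each gene) of Dkc1, Npm1, Nolc1 and Nhp2 in high Apoa1 wells (left) and other wells (right) of each library, joined by a line (red circles A1/A2, blue squares EMP). Nhp2 stays close between the classes, at −0.09 ± 0.06 on the log2 scale, while Dkc1 is lower in the high Apoa1 wells of all 8 libraries.

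Within the EMP libraries, wells with a Kit transcript had more counts of the 34 genes than wells without. The sum was 115.3, 132.9, 119.7 and 123.2 per 10000 in Kit wells, against 56.9, 89.8, 65.3 and 68.4 in wells without Kit, at the threshold of 20. At 50, 22 genes were higher and 0 lower, beside 20.6% of all genes called higher, and at 20, 5 were higher and 0 lower, beside 2.41%. These 5 were Npm1, Ncl, Nop56, Dkc1 and Gar1. Npm1 had 4206.4, 5264.0, 4562.3 and 4533.4 CPM in Kit wells, against 1920.0, 3340.0, 2447.1 and 2133.4 CPM in wells without Kit (log2 fold change 0.43 ± 0.10, adjusted p 0.00333). Dkc1 had 250.3, 218.6, 250.4 and 269.3 CPM in Kit wells and 130.7, 111.5, 103.3 and 119.5 CPM in wells without Kit (0.55 ± 0.14, adjusted p 0.0143). Ncl had 2021.4, 2278.1, 2261.6 and 2369.7 CPM in Kit wells and 966.1, 1573.1, 1242.6 and 1328.8 CPM in wells without Kit (0.32 ± 0.09, adjusted p 0.0205). Nop56 had 635.3, 660.9, 614.8 and 685.5 CPM in Kit wells and 278.4, 352.2, 383.4 and 400.0 CPM in wells without Kit (0.36 ± 0.10, adjusted p 0.0228).

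None of these groups overlapped, beside 31.0% of all genes higher and 1.04% lower without overlap at 20. The fold changes are smaller than the CPM show. Wells without Kit had more of their counts in a few genes, and the TMM scaling (a normalization that discounts such genes) moved the log2 values by 0.24 at the threshold of 50 and 0.52 at 20. The fold changes are relative to that shift. Wells without Kit had 30.7% to 45.6% of counts in mitochondrial genes at 20, against 18.8% to 22.2% in Kit wells. Erythroid markers summed to 3.7 to 42.5 per 10000 in Kit wells and 15.2 to 456.3 in wells without. The median total of a well was 17671 to 34414 counts in Kit wells and 8975 to 13592 in wells without. Thinned to 5000 counts, 6 of 33 genes were higher at 50, beside 8.84% of all genes, and 0 of 30 at 20, beside 0.831%, where 0 had an unadjusted p under 0.05 as well. What part each of these had was not tested.

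Within the A1/A2 libraries, wells with a Cx3cr1 transcript had more counts of the 34 genes than wells without. The sum at 20 was 134.8, 139.3, 119.8 and 133.9 per 10000 in Cx3cr1 wells, against 75.3, 102.8, 59.9 and 83.5 in wells without Cx3cr1. At 50, 27 genes were higher and 0 lower, beside 13.6% of all genes called higher, and 16 without A1/A2 library 3. At 20, 2 were higher, Npm1 and Dkc1, and 0 were lower, beside 1.27% of all genes. Npm1 had 4283.3, 4523.2, 4099.8 and 4344.6 CPM in Cx3cr1 wells, against 2158.0, 3213.5, 1850.9 and 2492.1 CPM in wells without (log2 fold change 0.44 ± 0.10, adjusted p 0.00959). Nop56 had 818.9, 759.3, 614.8 and 783.0 CPM in Cx3cr1 wells and 569.4, 569.3, 316.8 and 549.6 CPM in wells without (0.18 ± 0.11, adjusted p 0.396), and 0.57 ± 0.07 at the threshold of 50. Ncl (0.24 ± 0.09 at 20 and 0.40 ± 0.06 at 50) and Ddx21, an RNA helicase of early processing (0.23 ± 0.13 and 0.52 ± 0.09), were also called at 50 alone.

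The same measures moved with this split. The TMM shift was 0.26 at 50 and 0.41 at 20, mitochondrial genes held 15.0% to 18.4% of counts in Cx3cr1 wells and 23.8% to 36.1% in wells without at 20, and the median total was 34066 to 52606 counts in Cx3cr1 wells and 8160 to 11439 in wells without. At 20, macrophage markers summed to 13.5 to 17.0 per 10000 in Cx3cr1 wells and 3.2 to 9.3 in wells without. That sum may hold Cx3cr1 itself, which sets the split and had 196 ± 29.9 CPM in Cx3cr1 wells (SD, n = 4). Part of the gap may then follow from the split. Erythroid markers summed to 1.2 to 11.7 and 1.1 to 301.1 in these classes, lymphoid markers to 0.6 to 0.7 and 0.2 to 8.8, and neutrophil markers to 0.01 to 0.97 and 0.0 to 4.1. Their part in the result was not tested. Thinned to 5000 counts, 4 of 32 genes were higher at 50, beside 2.25% of all genes. At 20, 0 of 29 were called, beside 0.329%, and 2 had an unadjusted p under 0.05.

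Since Myc and Mycn are known activators of these genes, wells with and without their transcripts were compared within libraries. In A1/A2 libraries the sum at 20 was 136.7, 143.9, 115.6 and 136.7 per 10000 in Myc wells, against 86.2, 79.7, 46.7 and 79.5 in wells without Myc. At 50, 7 genes were higher (beside 1.05% of all genes) and 0 lower, and at 20, 2 were higher (Nolc1 and Nop58, beside 0.461%) and 0 lower. At 50, 25 of 34 had an unadjusted p under 0.05, a cut for which the share of all genes is not given here. The count at 50 changed as libraries were left out. It was 0 without A1/A2 library 1, without library 2 or without library 4, beside 0.0626%, 0.376% and 0.203% of all genes. It was 8 without library 3, beside 0.958%. The median log2 fold change of the 34 genes ranged over 0.34 to 0.47 in these fits. Nolc1 had 409.9, 469.5, 314.9 and 401.8 CPM in Myc wells and 189.1, 244.6, 99.1 and 235.2 CPM in wells without Myc at 20 (log2 fold change 0.66 ± 0.15, adjusted p 0.0236). Nop58 had 492.1, 526.0, 354.2 and 489.1 CPM in Myc wells and 294.8, 253.8, 128.5 and 274.8 CPM in wells without (0.57 ± 0.14, adjusted p 0.0391). Npm1 had 3853.3, 3670.1, 3439.0 and 3632.9 CPM in Myc wells, against 2257.6, 2090.3, 1530.9 and 2391.5 CPM in wells without Myc at 50 (0.47 ± 0.10, adjusted p 0.0113). Gar1 had 122.6, 131.1, 86.4 and 113.7 CPM in Myc wells and 57.3, 51.1, 37.5 and 65.4 CPM in wells without at 50 (0.76 ± 0.17, adjusted p 0.0158). Each of these groups stood apart without overlap. So did many genes outside the list, with 23.8% of all genes higher without overlap at 50 and 26.6% at 20. Lower without overlap were 1.28% and 1.7%.

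Whether a transcript is seen depends on depth. The median total was 36600 to 61768 counts in Myc wells of A1/A2 libraries and 7630 to 9904 in wells without Myc at 20, and the TMM shift was 0.44. Mitochondrial genes held 14.3% to 17.7% of counts in these Myc wells and 24.4% to 39.3% in wells without. Erythroid markers summed to 1.0 to 93.8 per 10000 in Myc wells and 2.0 to 314.4 in wells without, and neutrophil markers to 0.01 to 0.10 and 0.0 to 10.8. Their part in the result was not tested. Thinned to 5000 counts, 1 gene of 34 was called at 50, beside 0.376% of all genes, and 0 of 31 at 20, beside 0.417%, where 8 had an unadjusted p under 0.05.

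In EMP libraries Myc wells had 115.8, 132.8, 121.7 and 127.7 per 10000, against 53.6, 112.8, 73.4 and 92.5 in wells without Myc, at 20. At 50, 0 genes were called (0.145% of all genes were called higher), 12 had an unadjusted p under 0.05, and DESeq2 gave 0 adjusted and 3 unadjusted. At 20, Ncl (0.36 ± 0.09, adjusted p 0.0337) and Ddx21 (0.38 ± 0.10) were higher, beside 0.695% of all genes. Mycn wells had 110.5, 127.2, 115.3 and 124.5 per 10000, against 47.9, 120.7, 96.8 and 89.8 in wells without Mycn at 20, and the 120.7 of EMP library 2 without Mycn was above the Mycn wells of libraries 1 and 3. At 50, 0 genes were called (0.805% of all genes were called higher), 5 had an unadjusted p under 0.05, and DESeq2 gave 0 adjusted and 3 unadjusted. At 20, 0 were called (0.121% of all genes) and 2 had an unadjusted p under 0.05. Thinned to 5000 counts, 6 of 30 genes were higher in Mycn wells at 50, beside 6.5% of all genes, and 0 of 29 at 20, beside 0.0331%, where 1 had an unadjusted p under 0.05. In Myc wells of EMP 5 of 32 were higher at 50, beside 3.96%, and 0 of 31 at 20, beside 0.173%, where 4 had an unadjusted p under 0.05. The TMM shift was 0.34 for Myc and 0.38 for Mycn at 20. At that threshold mitochondrial genes held 19.4% to 21.7% of counts in Myc wells of EMP and 23.4% to 46.1% in wells without Myc, and 19.6% to 23.7% in Mycn wells and 23.7% to 48.7% in wells without Mycn. Endothelial markers summed to 4.2 to 4.9 per 10000 in Myc wells and 6.7 to 10.1 in wells without Myc. Erythroid markers summed to 5.3 to 80.2 in Mycn wells and 3.4 to 247.7 in wells without Mycn. The part of these in the results was not tested. The Myc effect did not pass a test of a difference between A1/A2 and EMP libraries for any of the 34 genes, beside 0.0448% of all genes at 50 and 0.0978% at 20, so the larger counts in A1/A2 are not shown to differ from those in EMP.

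In A1/A2 libraries the levels of Mycn wells are given with no test. At the threshold of 50 the sum was 99.95, 85.9, 80.4 and 97.7 per 10000 in Mycn wells (56 wells), against 117.3, 116.7, 105.1 and 113.0 in wells without Mycn (233 wells), lower in Mycn wells of 4 of 4 libraries. At 20 it was 113.2, 115.8, 89.95 and 133.1 in Mycn wells (27 wells), against 131.9, 132.5, 113.5 and 124.5 in wells without Mycn (179 wells), lower in Mycn wells of 3 of 4. The median total at 20 was 41554 to 69170 counts in Mycn wells and 11136 to 33646 in wells without. At 50, endoderm markers summed to 91.38 to 166.95 per 10000 in Mycn wells and 57.61 to 76.21 in wells without Mycn. Macrophage markers summed to 4.14 to 9.92 and 9.83 to 12.0. At 20, endoderm markers summed to 16.8 to 82.56 and 13.05 to 29.23, and macrophage markers to 4.12 to 13.96 and 11.69 to 15.25. The part of these in the levels was not tested.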

How the data were processed

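Single cells in 8 libraries were measured by mCEL-Seq2, which counts tags at the 3′ ends of transcripts with molecular identifiers. The authors deposited estimated counts per gene and well, corrected for collisions among 4096 identifiers, and each came out as a whole number of identifiers (100.0% of values). The other tables, 1 per library, hold the same values as the deposited series table in 689 of 689 shared wells within 1e-06. BWA 0.6.2-r126 and Seurat are named in the submitters' processing notes, while no label or header used here names a genome build or annotation.

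Wells of at least 5000 counts were kept. Within each library, or each class of its wells that held at least 5, counts were added up and rounded. Classes were set by 1 or more transcripts of Kit, Cx3cr1, Myc or Mycn, and by Apoa1 at 50 or more per 10000, with 20 and 100 as alternatives. Genes that set a class were left out of its test. Sums were tested with edgeR 4.0.16 (limma 3.58.1, R 4.3.3) by its quasi-likelihood test after TMM scaling and its default filter on low counts, adjusted over all genes tested by Benjamini-Hochberg at 0.05. Splits within a library had the library as a block. SE is the log2 fold change over the square root of F. CPM are scaled to 1000000 by the sum, without TMM. Alternatives were DESeq2 1.42.0, upper-quartile scaling, no filter, other minimum totals, no wells above 3 times the median total, thinning to 5000 counts, leaving out each library and the block. The fits were tested on simulated data. No doublet caller was run, since cells were sorted singly into wells. Depth limits the precision of genes with few counts.

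All 34 genes could be named. Values per library were given for 9 listed genes and up to 4 genes per direction by smallest p, with up to 3 per direction for other pathway lists; further genes were chosen after their values were seen. The members and lists were chosen with earlier results of these data known.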

Additional observations from a re-analysis of the deposited data

Results flagged for a closer look

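In 4 of 104 groups of 4 libraries, 1 library stood far below the other 3, and chance alone sets apart about 1 in 20 such groups. The summed level of the 34 genes in EMP wells without Mycn was 54.7 per 10000 in library 1 at the Apoa1 threshold of 50. In A1/A2 wells without Myc it was 46.7 per 10000 in library 3 at the threshold of 20. Dkc1 had 83.0 CPM in EMP library 2, below the other EMP libraries, and its log2 fold change between A1/A2 and EMP libraries ranged over 0.67 to 0.91 as each library was left out. Ncl had 967.5 CPM in wells without Kit of EMP library 1 at the threshold of 50. For Nolc1 the effect of high Apoa1 differed between A1/A2 and EMP libraries by −0.38 on the log2 scale, by a test of the interaction (edgeR's quasi-likelihood test, adjusted p 0.0357), and the gene was lower in high Apoa1 wells of 8 of 8 libraries.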

How the results depend on the processing

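Of the 34 genes, the number higher in A1/A2 than in EMP libraries was 21 (17.3% of all genes tested were), against 4 thinned to 5000 counts (8.21%), 11 without deep wells (12.6%), 13 without wells of Apoa1 at 20 (16.3%), 3 with both that and thinning (8.65%), and 13 to 20 as each library was left out (13 without A1/A2 library 1). For Cx3cr1 over Kit wells it was 26 (18.8%), against 1 thinned (8.81%), 14 without deep wells (14.5%), 14 at the Apoa1 threshold of 20 (17.0%), 1 at 20 and thinned (9.56%), and 19 to 24 without each library. For high Apoa1 wells, 10 were lower (11.5%), against 6 by DESeq2 (5.42%), 31 at 20 (33.8%), 24 at 20 and thinned (27.1%), and 5 to 12 without each library. At a threshold of 100 no sum could be made for that comparison.

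Within EMP, Kit wells had 22 higher (20.6%), against 13 by DESeq2 (11.2%), 6 thinned (8.84%), 5 at 20 (2.41%), 0 at 20 and thinned (0.831%), and 17 to 24 without each library. Within A1/A2, Cx3cr1 wells had 27 (13.6%), against 13 by DESeq2 (5.82%), 4 thinned (2.25%), 16 without deep wells (10.1%), 2 at 20 (1.27%), 0 at 20 and thinned (0.329%), and 16 to 23 without each library. Mycn wells had 0 (0.805%), against 2 with no filter (1.15%), 6 thinned (6.5%), 3 without deep wells (3.13%), and 0 to 1 without each library. Myc wells of EMP had 0 (0.145%), against 5 thinned (3.96%) and 2 at 20 (0.695%). Myc wells of A1/A2 had 7 (1.05%), against 1 by DESeq2 (0.218%), 22 with no filter (2.42%), 18 for wells of at least 1000 (3.76%), 0 for at least 10000 (0.2%), 1 thinned (0.376%), 2 at 20 (0.461%), 0 at 20 and thinned (0.417%), and 0 to 8 without each library. The causes were not tested, and thinning also left fewer genes to test.

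Between A1/A2 and EMP libraries the sign turned for Gnl3 with no filter (−0.01) and without the Apoa1 wells (−0.03), for Npm1 thinned (−0.02), without the Apoa1 wells (−0.08) and with both (−0.19), for Fbl thinned (−0.04) and with both (−0.27), and for Polr1b thinned (−0.10) and with both (−0.16). Ddx21 in Cx3cr1 wells of A1/A2 had −0.10 at 20 and thinned.

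Deviations of same-numbered A1/A2 and EMP libraries correlated at 0.219, 0.370 and 0.223 for numbers 1, 2 and 4 and at −0.019 for number 3, so not every pair passed 0.1 and the numbers were not taken as pairs. A1/A2 libraries 1, 2 and 4 each correlated best with the EMP library of their own number. The sample titles also give each A1/A2 library the same P number as an EMP library, without saying what P stands for. A pairing is thus possible and was not settled. With the replicate block, 25 genes were higher between libraries (21.2%) and 29 in Cx3cr1 over Kit wells (22.0%). With no replicate block, counts within libraries were 7 lower for high Apoa1 (6.41%), 16 for Kit (15.6%), 23 for Cx3cr1 (12.1%), 0 for Mycn and 0 for Myc in EMP (0 genes of all called in both) and 0 for Myc in A1/A2 (0.0343%).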
